A study of Mus musculus with 9 samples.

Results

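The genes described here are 55 mouse interferon response genes, named in a list and measured across 3 populations sorted from cultures of haematopoietic stem cells. All 55 symbols had a row among the 49585 genes of the count table, and 50 of them passed the filter on low counts and were tested among 11619 genes. The members were divided by their known roles into 5 groups, namely 5 transcription regulators, 12 nucleic acid sensors, 14 GTPases, 15 antiviral effectors and 9 genes of the ISG15, ubiquitin and ADP-ribose pathways.

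Interferons are secreted proteins that bind cell surface receptors. The receptors activate JAK kinases, which phosphorylate transcription factors of the STAT family. A complex that contains STAT2 and IRF9 binds the interferon-stimulated response element of target promoters, whereas other STAT dimers bind the gamma-activated sequence. The targets include sensors of foreign nucleic acid, enzymes that block viral translation and replication, GTPases that attack pathogen vacuoles, and the regulators themselves. Haematopoietic stem cells are known to express part of this programme without infection, and interferon can drive them out of quiescence.

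Bulk RNA-seq was made from wild-type C57BL/6 mouse bone marrow cells, with no interferon named among the culture ingredients. CD34-CD150+KSL cells (KSL, c-Kit+, Sca-1+ and lineage-) were cultured in F12 medium with 0.1% polyvinyl alcohol, 100 ng/ml thrombopoietin and 10 ng/ml stem cell factor. Culture lasted 10 days by the series' design and 1 week by the growth protocol. From these cultures CD201+CD150+CD48-KSL, CD201+CD150+CD48+KSL and CD201-KSL cells were sorted, 3 libraries of each, and they are called CD201+CD48-, CD201+CD48+ and CD201- cells below. The sample titles add CD150+CD48+ to the CD201- gate, and the treatment labels do not. CD201, the product of Procr, is a protein C receptor and a surface marker of haematopoietic stem cells, and CD48 is absent from the most immature of these cells. Nothing in the labels says that the 3 libraries of a population came from separate cultures or animals, so the p-values measure only the spread between these libraries. More than 5000 cells of each population were sorted from these cultures for RNA, so the values describe cultured cells and not cells taken directly from marrow.

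The libraries held between 3810123 and 7072885 counts. The sorted antigen Procr fell in steps, at 63.2 ± 3.74, 26.5 ± 2.16 and 3.56 ± 1.07 CPM (counts scaled to library sizes adjusted by TMM, a between-library normalization; mean ± SD, n = 3) in CD201+CD48-, CD201+CD48+ and CD201- cells. All 8 stem cell markers listed passed the count filter, and together they had 1947 to 2039 CPM in CD201+CD48-, 1360 to 1411 in CD201+CD48+ and 767 to 806 in CD201- cells. The listed stem cell marker Hlf stood at 445 ± 7.92, 252 ± 12.9 and 50.3 ± 3.79 CPM. In bulk samples such as these, fewer cells of a type and less RNA per cell cannot be told apart. Replicate 3 of the CD201- cells stood apart. Its chi-square per degree of freedom against the other CD201- libraries was 13.4 and 12.8, against 1.36 to 3.62 for the other pairs of replicates. Of other cell types, Siglech of plasmacytoid dendritic cells had 1, 2 and 0 counts per population, the macrophage gene Adgre1 had 3, 1 and 0, and Ly6d, Ly6g, S100a9, Retnlg, Cd3e, Ms4a1 and Hba-a1 had none. The classical dendritic cell list of 6 genes, 3 of them above the count filter, summed to between 130 and 140 CPM in CD201+CD48-, 74.1 to 97.0 in CD201+CD48+ and 20.2 to 23.0 in CD201- cells, of which Cd74 (102 ± 7.75, 34.7 ± 7.59 and 6.47 ± 1.11 CPM), Flt3 and Zbtb46 made up nearly all. Of its other members, H2-Aa, with 1, 6 and 3 counts, and Itgax, with 1, 2 and 1, were near 0. The 3 above the filter were higher in CD201+CD48- than in CD201- cells (median log2 fold change 2.00) by the test described below. Over all genes 24.2% were higher there. The plasmacytoid list of 6, also with 3 above the filter, summed to 295 to 321, 274 to 276 and 208 to 214 CPM. Most of it came from Tcf4 and from Bst2, which is itself one of the 55 genes. The megakaryocyte list of 6 summed to 1272 to 1331, 249 to 265 and 461 to 539 CPM, and the mast cell and basophil list of 6 to 5.09 to 9.35, 2.89 to 4.61 and 35.9 to 44.0 CPM. The monocyte and macrophage list of 8, with 3 above the filter, summed to 19.4 to 23.2, 8.13 to 14.2 and 11.8 to 12.7 CPM. Of these 3 genes, 2 were higher in CD201+CD48- than in CD201- cells by the test described below. The median log2 fold change of the 3 was 0.82. In CD201+CD48+ against CD201- cells none was higher. The erythroid list of 6, with 2 above the filter, stepped with the programme, at 196 to 221, 136 to 148 and 49.97 to 92.5 CPM. Nearly all of it was the globin gene Hbb-bt (206 ± 13.1, 138 ± 6.95 and 74.0 ± 23.7 CPM). The neutrophil list of 8 summed to 7.58 to 10.4, 4.81 to 6.80 and 2.15 to 5.48 CPM, with Ltf (8.16 ± 2.27, 5.10 ± 1.16 and 0.948 ± 0.674) its 1 gene above the filter. The T, B and NK cell list of 9 ran the other way, at 1.26 to 4.06, 6.24 to 7.52 and 8.77 to 16.4 CPM, with Nkg7 (1.56 ± 1.11, 6.07 ± 0.867 and 13.4 ± 4.02) its 1 gene above the filter. The endothelial and stromal list of 6, with 3 above the filter, summed to 122 to 139, 105 to 116 and 143 to 162 CPM. The part of any other cell type in the results below was not tested.

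Promoter sequences are shown first, since they show what the members share apart from their level. RefSeq promoters of build GRCm38.p6, from 250 bases before to 50 after the start site, were matched by symbol for 42 of the 55 genes, 7 of them with several start sites. The core of the interferon-stimulated response element, GAAANNGAA, was searched on both strands, with overlapping matches counted. In the stretches below, the 150 bases before the first listed start site are given 5′ to 3′ on the gene's strand, and capitals mark bases within a match, which reads TTCNNTTTC where it lies on the other strand. They were chosen to give each role at least 1 gene and not at random. All but that of Irf9 hold a match, so they do not show how common a match is. The share over the members is given after them.
Irf9, chr14:55603835-55603984, plus strand: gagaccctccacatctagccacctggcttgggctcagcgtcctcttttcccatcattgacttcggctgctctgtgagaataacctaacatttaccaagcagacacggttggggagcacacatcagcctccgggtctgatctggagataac
Ddx60, chr8:61927937-61928086, plus strand: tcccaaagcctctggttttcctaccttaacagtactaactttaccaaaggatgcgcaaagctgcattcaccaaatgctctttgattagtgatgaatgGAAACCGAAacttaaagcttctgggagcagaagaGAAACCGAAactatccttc
Oas3, chr5:120777660-120777809, minus strand: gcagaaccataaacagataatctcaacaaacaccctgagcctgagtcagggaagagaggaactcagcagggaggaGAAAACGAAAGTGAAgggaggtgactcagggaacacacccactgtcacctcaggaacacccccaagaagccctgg
Gbp2, chr3:142620513-142620662, plus strand: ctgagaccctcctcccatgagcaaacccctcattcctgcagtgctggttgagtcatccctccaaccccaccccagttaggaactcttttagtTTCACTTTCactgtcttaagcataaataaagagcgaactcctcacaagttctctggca
Gbp3, chr3:142559894-142560043, plus strand: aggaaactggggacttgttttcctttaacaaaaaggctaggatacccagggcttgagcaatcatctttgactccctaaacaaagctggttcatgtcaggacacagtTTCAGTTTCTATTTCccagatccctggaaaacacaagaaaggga
Ifit1, chr19:34640739-34640888, plus strand: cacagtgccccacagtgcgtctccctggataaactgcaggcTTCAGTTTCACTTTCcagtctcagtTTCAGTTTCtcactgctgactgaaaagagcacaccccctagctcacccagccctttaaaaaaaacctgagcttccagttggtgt
Isg15, chr4:156200819-156200968, minus strand: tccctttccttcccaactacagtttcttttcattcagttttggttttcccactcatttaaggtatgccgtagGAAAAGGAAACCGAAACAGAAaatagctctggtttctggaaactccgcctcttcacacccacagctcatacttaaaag

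Isg15 and Ifit1 each held 3 matches, Ddx60, Oas3 and Gbp3 held 2, Gbp2 held 1, and Irf9 held none in the window searched. In Isg15 the 3 matches overlap in one run of 21 capitals, and in Ddx60 they stand apart. Of the 42 genes, 27 (64.3%) held a match in at least 1 promoter, against 2638 of 27025 genes (9.76%) in the whole RefSeq table. By role the genes with a match were 7 of 8 GTPases, 7 of 9 sensors, 9 of 15 effectors, 3 of 6 genes of the ISG15 group and 1 of 4 regulators (Stat2). The longer form of the core, with 1 further A, was found in 54.8% of the genes with a promoter and 3.99% of all genes. The gamma-activated sequence TTCNNNGAA was found in 13 of the 42 (31.0%), against 9.55% of all genes, and in 4 of the 8 GTPases. Matches to the 2 motifs may overlap, since both hold GAA. These matches are descriptions of letters, not of bound sites. Of 47 matches in member promoters, 38 began before the start site, and 32 of these lay within the last 150 bases.

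**Figure D1:**
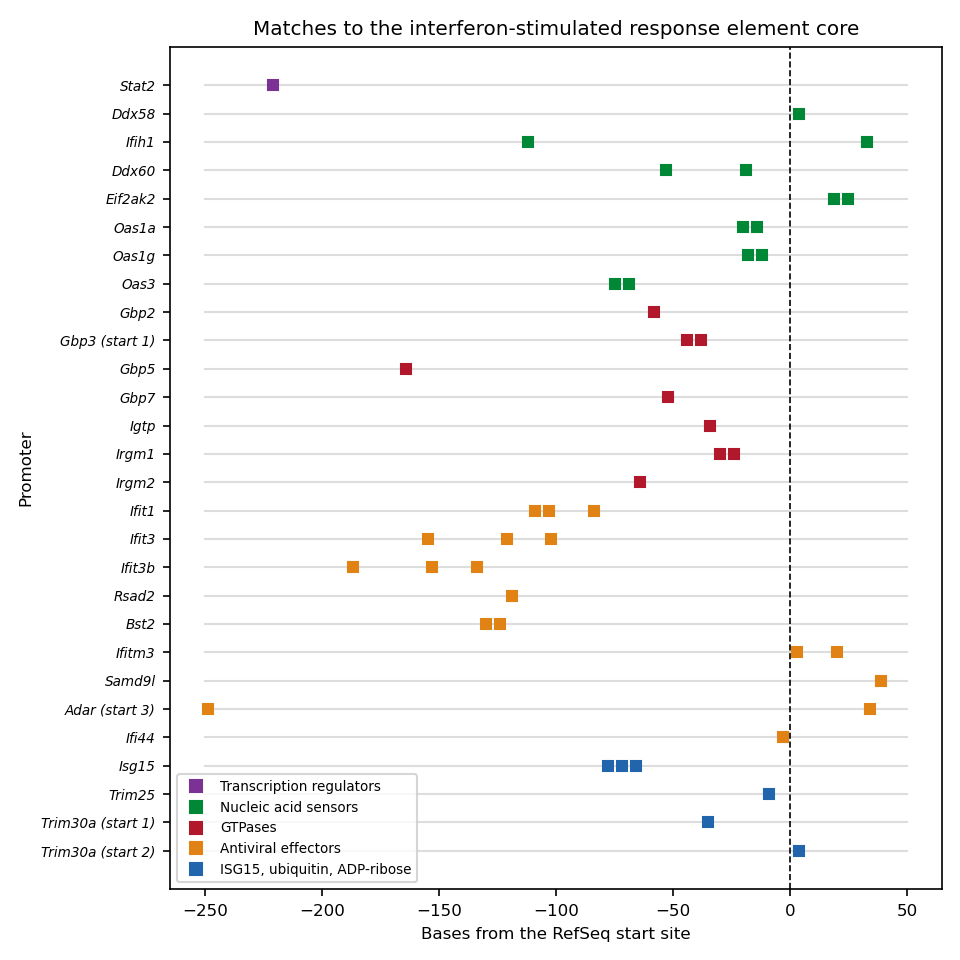
Position of each GAAANNGAA match (squares) in the member promoters that hold one, in bases from the RefSeq start site (dashed line), coloured by role; each grey line is the window searched. Of the 47 matches, 38 begin left of the start site.

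The first question was how the 55 genes are placed along the order of the sort, from CD201+CD48- through CD201+CD48+ to CD201- cells. The programme was highest in CD201+CD48- and lowest in CD201- cells, with CD201+CD48+ cells between. Summed over the 50 tested genes the level was 3948 ± 13.9 CPM in CD201+CD48-, 3231 ± 33.6 in CD201+CD48+ and 2482 ± 24.4 in CD201- cells (n = 3). For the median tested gene, log2 CPM lay 0.43 ± 0.03 above its mean over the 9 libraries in CD201+CD48-, 0.04 ± 0.02 above it in CD201+CD48+ and -0.52 ± 0.03 from it in CD201- cells. The 3 populations did not overlap in either measure. Over all genes tested the same median lay between -0.016 and 0.012 in the 9 libraries. The sum is weighted to abundant genes such as Rnf213 (764 CPM in CD201+CD48- cells) and Ifitm1 (383 CPM), whose libraries were not in steps. In 31 of the 50 tested genes every CD201+CD48- library was above every CD201+CD48+ library, and each of these was above every CD201- library. Over all genes tested, 9.87% showed that order. The group means took that order in 48 of the 50, against 31.2% of all genes, and the exceptions were Ifit2 and Usp18. Gbp6, Gbp9 and Oasl1 passed the count filter only through libraries of the CD201+ populations where they are high, and without such genes 29 of 47 were in steps, against 9.54% of all genes. Without CD201- replicate 3, 32 of the 50 were in steps over the 8 libraries, against 11.1% of all genes. The libraries were in steps in 4 of 5 regulators, 7 of 11 sensors, 9 of 12 GTPases, 6 of 13 effectors and 5 of 9 genes of the ISG15 group.

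**Figure D2:**
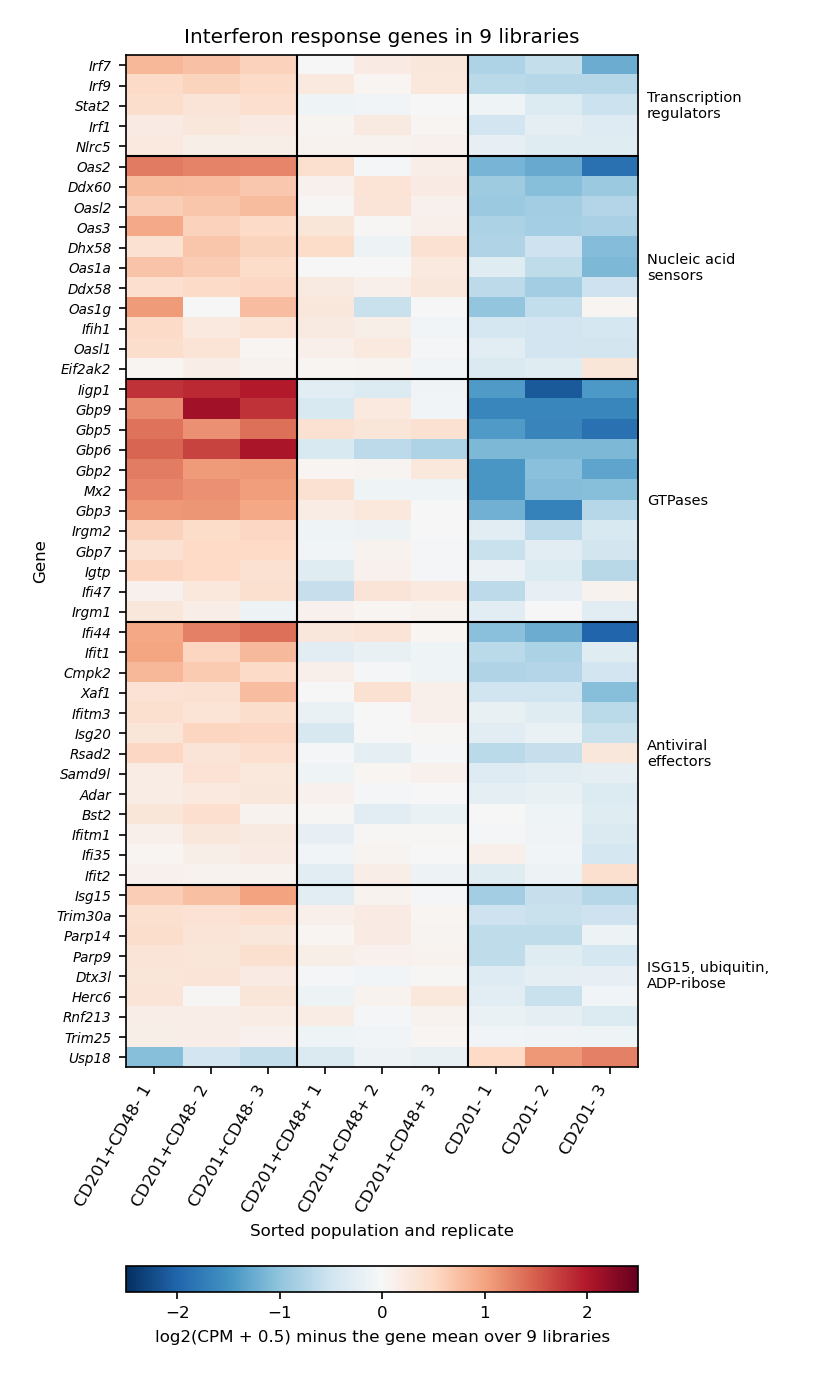
Level of the 50 tested genes in each of the 9 libraries, as log2(CPM + 0.5) minus the gene's mean over the libraries (red above, blue below), grouped by role and sorted by the difference between CD201+CD48- and CD201- cells. Colours step from red to blue from left to right in most genes, and Usp18, in the last line, runs the opposite way.

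Differences between populations were tested with edgeR's quasi-likelihood F test over all 11619 genes, with Benjamini-Hochberg adjustment and a threshold of 0.05. The 3 comparisons share libraries and are not independent of each other. In CD201+CD48- against CD201- cells, 44 of the 50 genes were higher, 1 was lower and 5 did not pass, beside 24.2% of all genes higher and 23.9% lower. The median log2 fold change was 0.90 over the 50 genes and 0.0032 over all genes. In CD201+CD48+ against CD201- cells, 31 were higher, 1 was lower and 18 did not pass, beside backgrounds of 14.8% and 14.3%, with a median of 0.52, or 0.47 with 2 genes at 0 counts in CD201- cells set to their lower bounds. In CD201+CD48- against CD201+CD48+ cells, 25 were higher, none was lower and 25 did not pass, beside 9.05% and 6.31%, with a median of 0.41. Without Gbp6, Gbp9 and Oasl1, which passed the count filter only where they are high, 42, 30 and 23 of 47 were higher in the 3 comparisons. At an unadjusted p under 0.05, 37 of the 50 were higher and still none was lower by edgeR in that last comparison, and DESeq2 and limma called none lower at their adjusted thresholds. Without CD201- replicate 3 the counts of higher genes were 44, 34 and 37 in the 3 comparisons. Gained there were Eif2ak2 and Ifit2 in CD201+CD48- against CD201-, and Eif2ak2, Herc6 and Rsad2 in CD201+CD48+ against CD201-. The 12 gained between the CD201+ populations were Adar, Bst2, Ddx58, Ifih1, Ifitm1, Igtp, Oas1a, Oas1g, Parp9, Parp14, Rsad2 and Trim25. In the comparison of the CD201+ populations the count was 17 without CD201+CD48- replicate 1, and 37 when the 6 libraries of those populations were fitted alone. Passing in all 3 comparisons were 20 genes, among them Irf7, Irf9, Ddx60, Oas2, Oas3, Oasl2, Gbp2, Gbp3, Gbp5, Gbp7, Iigp1, Ifi44 and Trim30a. Leaving out single libraries ended some calls. Those so lost in at least 1 case were Oas1g, Irgm1, Rsad2, Bst2 and Trim25 for CD201+CD48- against CD201-, and Oas1a, Irgm2, Ifitm3, Samd9l, Adar and Dtx3l for CD201+CD48+ against CD201-. For CD201+CD48- against CD201+CD48+ they were Irf7, Irf9, Oas3, Isg20, Cmpk2, Ifitm3, Samd9l, Isg15, Trim30a and Dtx3l.

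**Figure D3:**
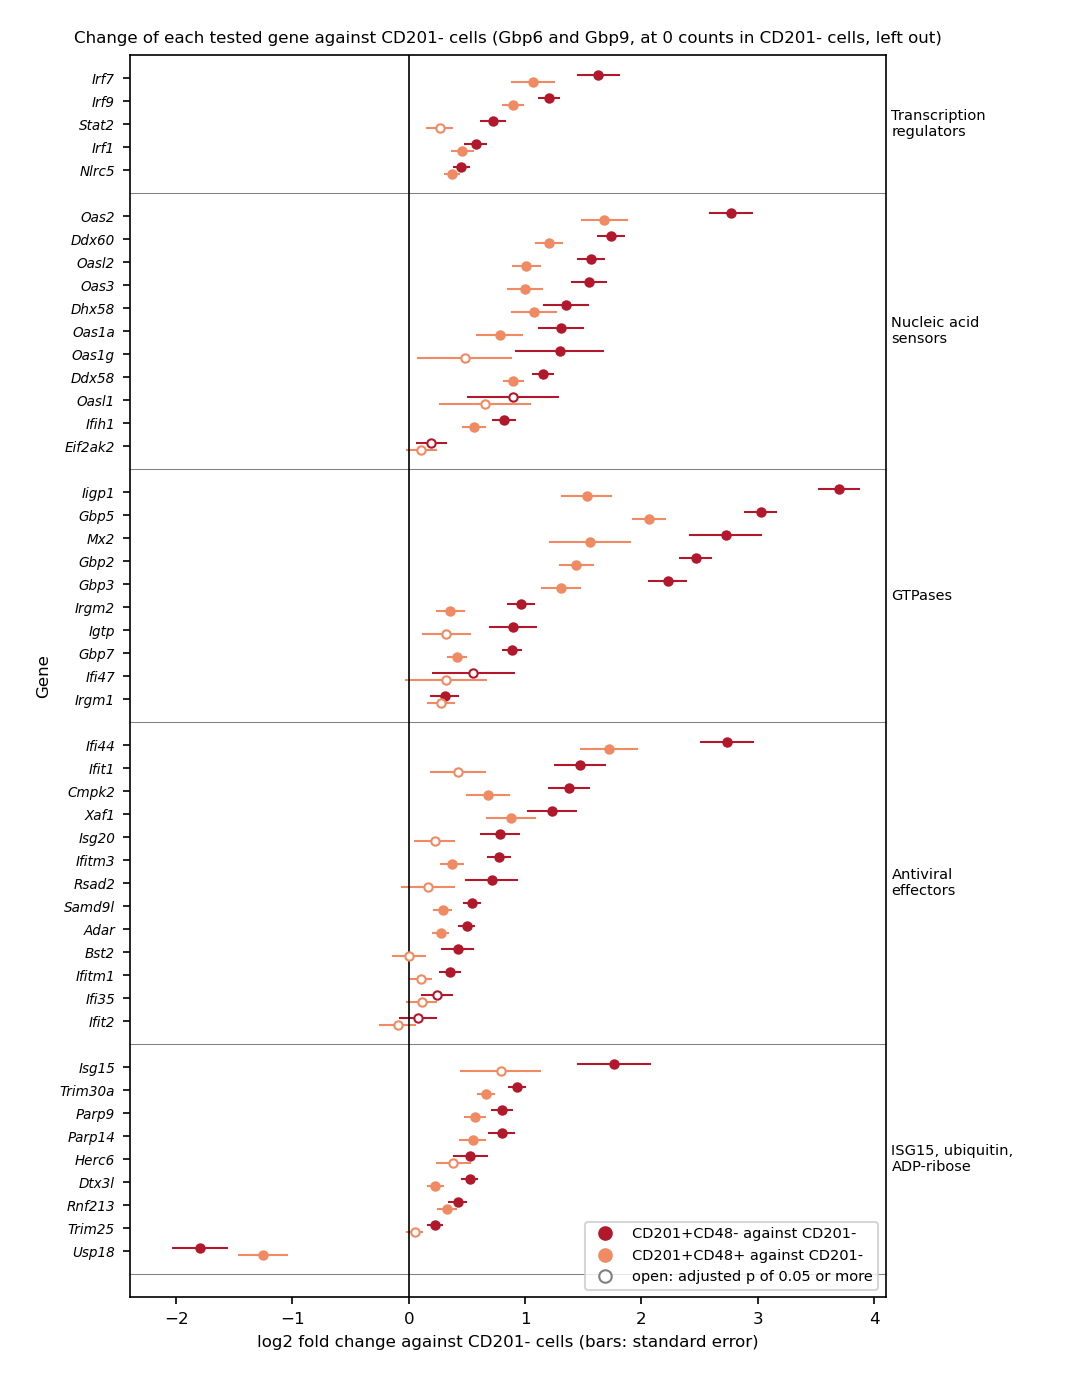
Log2 fold change of each tested gene against CD201- cells, with its standard error, for CD201+CD48- (dark red) and CD201+CD48+ cells (orange), by role; filled points passed the threshold of 0.05 and open points did not. The dark red point lies right of the orange one in every gene drawn except Usp18, the only gene drawn with filled points left of 0.

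All 5 transcription regulators were higher in CD201+CD48- than in CD201- cells, with a median log2 fold change of 0.72. Irf7, the factor that amplifies type I interferon transcription, stood at 21.7, 20.2 and 18.2 CPM in CD201+CD48-, 11.96, 13.98 and 14.85 in CD201+CD48+, and 6.86, 7.75 and 4.82 in CD201- libraries. No library of one population overlapped another, and the log2 fold change was 1.63 ± 0.19 (SE; adjusted p = 4.2e-06) for CD201+CD48- and 1.07 ± 0.19 (adjusted p = 6.7e-04) for CD201+CD48+ cells, each against CD201-. Between the CD201+ populations the log2 difference was 0.56 ± 0.16 (adjusted p = 0.024), and 8 of 17 alternative analyses lost that call. Irf9, the DNA-binding partner of STAT2, stood at 73.4, 78.1 and 74.2 CPM in CD201+CD48-, 63.0, 55.0 and 63.7 in CD201+CD48+, and 33.2, 32.3 and 32.2 in CD201- libraries, a log2 fold change of 1.21 ± 0.09 (adjusted p = 6.4e-08) between the first and the last. The 3 CD201- values lay close together and far below both other populations.

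Stat2, which carries an activation domain of the complex with IRF9, was placed differently. It stood at 49.0 ± 2.00 CPM in CD201+CD48-, 35.7 ± 1.17 in CD201+CD48+ and 29.7 ± 4.35 in CD201- cells (n = 3). It passed between the CD201+ populations (log2 fold change 0.46 ± 0.11, adjusted p = 0.0082) and not against CD201- cells in CD201+CD48+ (0.27 ± 0.11, adjusted p = 0.090). That last comparison it passed without CD201- replicate 1 (0.38, adjusted p = 0.028) and when scaled by library size only. Irf1, a factor induced by interferon gamma and other signals, had its step lower down. Its level was 63.7 ± 2.41, 58.9 ± 4.01 and 42.7 ± 3.82 CPM, and the log2 differences were 0.46 ± 0.10 (adjusted p = 0.0021) for CD201+CD48+ against CD201- and 0.11 ± 0.09 (adjusted p = 0.46) for the CD201+ populations against each other. Nlrc5, the transactivator of MHC class I genes, stood at 145 ± 6.45 CPM in CD201+CD48- and 106 ± 3.92 in CD201- cells, with 137 to 139 in the CD201+CD48+ libraries, and passed against CD201- in both CD201+ populations and not between them (0.08 ± 0.07, adjusted p = 0.50). Whether these genes differ from each other in their steps was not tested.

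Of the 11 tested nucleic acid sensors, 9 were higher in CD201+CD48- than in CD201- cells, 8 in CD201+CD48+ than in CD201- cells, and 4 between the CD201+ populations, with medians of 1.31, 0.90 and 0.53. Oas2, which makes 2′,5′-linked oligoadenylates on binding double-stranded RNA, stood at 31.2, 30.3 and 29.7 CPM in CD201+CD48-, 16.7, 12.1 and 14.0 in CD201+CD48+, and 5.31, 4.95 and 3.07 in CD201- libraries. The ranges of the populations lay far apart, and the level was 6.82-fold higher in CD201+CD48- than in CD201- cells (a log2 fold change of 2.77 ± 0.19, adjusted p = 1.8e-08). Between the CD201+ populations the log2 difference was 1.09 ± 0.15 (adjusted p = 1.2e-04). Ddx60, a helicase that aids RIG-I signalling, stood at 42.9, 41.9 and 39.2 CPM, then 26.5, 31.0 and 28.5, then 13.1, 11.4 and 12.7 in the same order of populations. Its range from CD201- to CD201+CD48- was 3.34-fold (adjusted p = 2.3e-08). Oas3 (log2 fold change 1.55 ± 0.15) and Oasl2 (1.57 ± 0.12) passed in all 3 comparisons too.

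The 3 RNA helicases of the RIG-I family exceeded their CD201- level in both CD201+ populations. Between the CD201+ populations their log2 differences were 0.25 to 0.27, and none passed in the main fit of all libraries. Ddx58 (0.25, adjusted p = 0.0034) and Ifih1 (0.26, adjusted p = 0.017) passed without CD201- replicate 3. Both also passed when the 6 libraries of those populations were fitted alone. Ddx58 passed as well without CD201- replicate 2 and when scaled by library size only. RIG-I itself, listed as Ddx58, stood at 126 ± 4.26, 105 ± 6.04 and 56.4 ± 6.88 CPM (log2 fold change of CD201+CD48- against CD201- 1.15 ± 0.09, adjusted p = 9.9e-08). MDA5, listed as Ifih1, stood at 61.3 ± 5.02, 51.5 ± 5.30 and 34.8 ± 0.533 CPM. LGP2, the regulator of both and listed as Dhx58, stood at 22.1 ± 2.46, 18.04 ± 3.88 and 8.58 ± 1.77 CPM. Oas1a stood at 17.9 ± 1.57, 12.3 ± 1.34 and 7.22 ± 2.13 CPM, and Oas1g at 5.97 ± 2.24, 3.43 ± 1.09 and 2.48 ± 1.12. About 64.8% of the 36-base stretches of the Oas1a transcript occur in that of Oas1g, so with 36 nt reads the level of each is uncertain.

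Eif2ak2, the RNA-activated kinase PKR that stops translation, did not pass in any comparison in the main fit of all libraries. It stood at 129.9, 140.0 and 133 CPM in CD201+CD48-, 129, 132 and 119 in CD201+CD48+, and 97.6, 100.5 and 153 in CD201- libraries. The high CD201- value is that of replicate 3, the library that stood apart. In the main fit the log2 fold change of Eif2ak2 in CD201+CD48- against CD201- was 0.20 ± 0.14 (adjusted p = 0.26). The gene passed there when scaled by library size only. Without CD201- replicate 3 the value was 0.43 and passed. Without it CD201+CD48+ cells were also higher than CD201- cells (0.35, adjusted p = 1.2e-04, in place of 0.11, adjusted p = 0.59). Oasl1 was at 2.17, 1.87 and 1.17 CPM on average and did not pass in the main fit. For CD201+CD48- against CD201- it had 0.89 ± 0.40 on the log2 scale (adjusted p = 0.075), and it passed there when scaled by library size only. Zbp1, the sensor of Z-form nucleic acid, was not tested, with 37 counts over all libraries.

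The GTPases had the highest median of the 5 roles in CD201+CD48- against CD201- cells, a log2 fold change of 2.35, and 11 of the 12 tested were higher there. Gbp6 and Gbp9 are among them though they passed the count filter only through CD201+CD48- libraries, and without both the median was 1.60 and the count 9 of 10. In CD201+CD48+ against CD201- cells 8 were higher, with a median of 1.38, or 0.86 with Gbp6 and Gbp9 at their lower bounds. Between the CD201+ populations, 9 were higher in CD201+CD48- than in CD201+CD48+ cells, with a median of 0.94. Iigp1, an immunity-related GTPase that disrupts parasite vacuoles, stood at 39.7, 41.4 and 44.9 CPM in CD201+CD48-, 8.88, 8.50 and 10.3 in CD201+CD48+, and 3.76, 2.15 and 3.73 in CD201- libraries. The largest part of its step lay between the CD201+ populations (log2 2.17 ± 0.14, adjusted p = 5.3e-08), with 1.53 ± 0.22 (adjusted p = 1.1e-04) for CD201+CD48+ against CD201-. Its whole range was 13.0-fold (adjusted p = 5.0e-10).

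Guanylate-binding proteins coat intracellular pathogens and their vacuoles, and in mice their genes lie in a cluster on chromosome 3 and another on chromosome 5. The 4 members of the chromosome 3 cluster, Gbp5, Gbp7, Gbp3 and Gbp2 (chr3:142496934-142638008, GRCm38), together had 361 ± 1.35, 219 ± 8.80 and 123 ± 6.97 CPM. Gbp5 stood at 57.7, 49.5 and 58.2 CPM in CD201+CD48-, 28.9, 27.2 and 29.0 in CD201+CD48+, and 7.97, 6.67 and 5.70 in CD201- libraries, 8.14-fold higher in the first than in the last (log2 3.02 ± 0.14, adjusted p = 2.5e-10). Gbp2 fell from 47.8 ± 4.34 over 23.5 ± 1.95 to 8.66 ± 1.32 CPM (log2 differences 1.03 ± 0.12 and 1.44 ± 0.15). Gbp3 went from 97.0 ± 4.59 over 51.6 ± 5.21 to 20.7 ± 7.18 CPM. Gbp7, between Gbp5 and Gbp3 on the chromosome, had a smaller range, from 161 ± 7.68 over 116 ± 6.83 to 87.0 ± 8.28 CPM (log2 fold change of the ends 0.89 ± 0.08, adjusted p = 6.5e-07).

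The chromosome 5 cluster (chr5:105076464-105295871) had no count in any CD201- library. Gbp9 had 63 counts in CD201+CD48-, 18 in CD201+CD48+ and 0 in CD201- cells, at least 20.4-fold and at least 4.47-fold higher in the CD201+ populations with 3 counts per group taken as the floor. Gbp6 had 44, 4 and 0 counts, at least 14.2-fold higher in CD201+CD48- cells, and Gbp4, which was too low to be tested, 23, 1 and 0, at least 7.44-fold. For Gbp4 the ratio of CD201+CD48- to CD201+CD48+ was 30.0 (95% counting interval 4.87 to 1234). Counting intervals and floors cover counting error only. A share of 90.5% of the 36-base stretches of Gbp6 occurs in other annotated transcripts, so its counts may belong in part to a neighbour. For Gbp9 and Gbp4 the shares are 18.5% and 20.2%. Gbp8, a gene of the same cluster outside the 55, had 33, 7 and 0 counts.

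Of the other GTPases, Mx2, a dynamin-like antiviral protein, stood at 7.81 ± 0.496, 3.50 ± 0.818 and 1.16 ± 0.241 CPM and passed in all 3 comparisons. Its relative Mx1, with 54 counts in all, was not tested. Irgm2 (37.5 ± 1.45, 24.6 ± 1.11 and 19.2 ± 2.63 CPM) and Igtp (11.4 ± 0.711, 7.67 ± 1.11 and 6.12 ± 1.25 CPM), neighbours on chromosome 11, were higher in CD201+CD48- than in CD201- cells. Irgm1 on the same chromosome barely passed there (log2 0.31 ± 0.12, adjusted p = 0.047), and 12 of 17 alternatives lost the call. Ifi47 did not pass in any comparison (log2 0.56 ± 0.36 for CD201+CD48- against CD201-, adjusted p = 0.22).

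**Figure D4:**
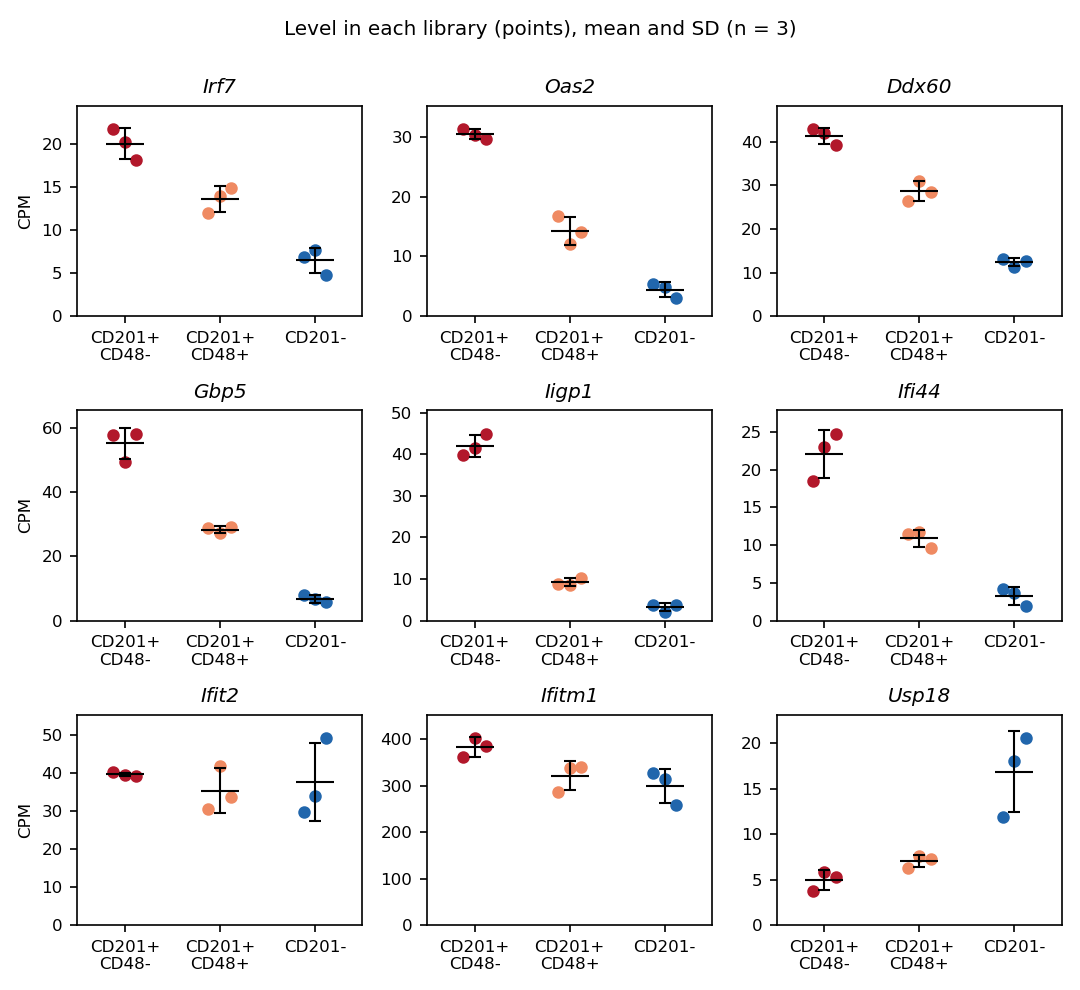
Level of 9 of the genes in each library in CPM on a linear axis from 0 (points), with the mean and SD of each population (bars, n = 3). Irf7, Oas2, Ddx60, Gbp5, Iigp1 and Ifi44 step down without overlap, Ifit2 and Ifitm1 overlap between populations, and Usp18 is highest in CD201- cells.

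Antiviral effectors ranged from steep steps to overlapping populations. Of 13 tested, 11 were higher in CD201+CD48- than in CD201- cells (median 0.71), 6 in CD201+CD48+ than in CD201- cells (median 0.27) and 6 between the CD201+ populations (median 0.40). Ifi44, a cytoplasmic protein induced by type I interferon, stood at 18.5, 23.0 and 24.8 CPM in CD201+CD48-, 11.4, 11.7 and 9.63 in CD201+CD48+, and 4.21, 3.66 and 1.97 in CD201- libraries, a 6.66-fold range (adjusted p = 1.7e-07). Cmpk2, a mitochondrial nucleotide kinase, stood at 16.0 ± 1.92, 9.99 ± 0.872 and 6.19 ± 0.711 CPM and passed in all 3 comparisons. Its neighbour Rsad2, which encodes viperin, stood at 13.3 ± 0.961, 9.12 ± 0.702 and 8.16 ± 3.38 CPM and with all libraries passed only between the outer populations (log2 0.71 ± 0.23, adjusted p = 0.017). The call for Rsad2 was lost without CD201+CD48- replicate 1, CD201- replicate 1 or CD201- replicate 2. Without CD201- replicate 3, where it stood at 12.1 CPM against 5.98 and 6.46 in the other CD201- libraries, its log2 fold change was 1.10, and it then passed in the other comparisons too (0.56, adjusted p = 0.045, for CD201+CD48+ against CD201-, and 0.54, adjusted p = 0.0095, between the CD201+ populations).

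The Ifit genes of chromosome 19 encode proteins that bind foreign RNA, and Ifit1 and Ifit2 are the members among them with enough counts to test. Ifit1 stood at 12.9, 9.35 and 11.5 CPM in CD201+CD48-, 5.13, 5.48 and 5.78 in CD201+CD48+, and 3.76, 3.44 and 5.04 in CD201- libraries. It passed between the CD201+ populations (log2 1.05 ± 0.20, adjusted p = 0.0024), while CD201+CD48+ differed from CD201- cells by 0.42 ± 0.24 (adjusted p = 0.21). Ifit2 stood at 40.2, 39.7 and 39.4 CPM in CD201+CD48-, 30.6, 41.9 and 33.8 in CD201+CD48+, and 29.9, 34.0 and 49.3 in CD201- libraries, and its populations overlapped. Its log2 difference between the outer populations was 0.08 ± 0.16 (adjusted p = 0.73). The highest value was again that of CD201- replicate 3, and without it the difference was 0.31 and passed. Whether Ifit1 and Ifit2 differ in their steps was not tested. Neither of the 2 listed promoters of Ifit2 held the response element core, and the promoter of Ifit1 held 3. Ifit3, with 25 counts in all, and Ifit3b, with 12, were not tested, though both promoters held 3 matches. About 53.4% of the 36-base stretches of Ifit3 are shared with Ifit3b.

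Per kilobase of transcript, Ifitm1, a membrane protein that blocks viral fusion, had the highest level of the members with a matched transcript, at 513, 431 and 401 CPM per kb, followed by Ifitm3 at 141, 106 and 82.3. Of the 36-base stretches of Ifitm1, 27.1% occur in other annotated transcripts. In CPM, Ifitm1 was higher in CD201+CD48- (383 ± 20.6) than in CD201- cells (299 ± 36.4), with a log2 fold change of 0.35 ± 0.10 (adjusted p = 0.0075). CD201+CD48+ cells, at 321 ± 30.8, overlapped CD201- cells. Ifitm3 passed in all 3 comparisons, from 105 ± 17.3 CPM in CD201- to 136 ± 13.1 and 181, 174 and 185 CPM in the CD201+CD48- libraries, though 69.1% of its 36-base stretches occur elsewhere. Samd9l, a restriction factor that also limits haematopoietic growth, stood at 166 ± 10.1, 139 ± 10.4 and 113 ± 3.68 CPM and passed in all 3 comparisons. Adar (139.8 ± 5.09, 119.7 ± 6.03 and 99.0 ± 5.74 CPM), the editor that marks own double-stranded RNA, and the apoptosis factor Xaf1 (14.8 ± 2.54, 11.6 ± 1.63 and 6.26 ± 1.44) passed against CD201- cells in both CD201+ populations. Isg20 and Bst2, the tetherin that holds budding virus at the membrane, were higher in CD201+CD48- than in CD201- cells (log2 0.79 ± 0.17 and 0.42 ± 0.14). Ifi35 passed in no comparison in the main fit of all libraries (0.24 ± 0.14 for CD201+CD48- against CD201-, adjusted p = 0.16). In that comparison it passed without CD201- replicate 1 (0.37, adjusted p = 0.048) and when scaled by library size only.

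Within the ISG15, ubiquitin and ADP-ribose group, 8 of 9 genes were higher in CD201+CD48- than in CD201- cells and 1, Usp18, was lower. Isg15, the ubiquitin-like modifier itself, was scarce, at 4.59, 5.05 and 6.20 CPM in CD201+CD48-, 2.22, 3.02 and 2.75 in CD201+CD48+, and 1.33, 1.72 and 1.53 in CD201- libraries, without overlap (log2 of the outer populations 1.76 ± 0.32, adjusted p = 3.1e-04). Isg15 did not pass in CD201+CD48+ against CD201- cells (0.79, adjusted p = 0.099). Between the CD201+ populations it passed (0.97, adjusted p = 0.022), and 6 of 16 alternatives lost that call. It shares 28.0% of its 36-base stretches with the overlapping gene Gm46878. Outside the 55 genes, its activating enzyme Uba7 (log2 0.92 ± 0.10) and its conjugating enzyme Ube2l6 (1.15 ± 0.14) were higher in the same comparison.

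Usp18, the protease that removes ISG15 and a brake on the type I interferon receptor, took the opposite order. It had 21, 23 and 24 counts in CD201+CD48- and 37, 40 and 53 in CD201+CD48+ libraries, and 54, 84 and 94 in CD201- libraries, given here in rising order. In CPM the level was 4.94 ± 1.10, 7.06 ± 0.651 and 16.9 ± 4.45. Every CD201- library was above every CD201+ library. The log2 fold change against CD201- cells was -1.80 ± 0.24 in CD201+CD48- (3.48-fold lower, adjusted p = 2.0e-05) and -1.26 ± 0.21 in CD201+CD48+ cells (adjusted p = 4.9e-04), and both calls held in all 17 alternatives. Between the CD201+ populations it did not pass (-0.54 ± 0.26, adjusted p = 0.19). Usp18 overlaps the annotated gene Gm44148, with which it shares 5.33% of its 36-base stretches.

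The E3 ligase Trim30a stood at 112 ± 2.41, 93.3 ± 4.96 and 58.8 ± 1.17 CPM (log2 fold change of the outer populations 0.93 ± 0.08, adjusted p = 1.4e-07). The neighbours Parp9, Dtx3l and Parp14 on chromosome 16 (chr16:35831892-35972621), of which the first 2 products act as a complex of an ADP-ribosyltransferase and a ubiquitin ligase, together had 445 ± 14.5, 371 ± 5.67 and 276 ± 29.4 CPM. Each passed as higher against CD201- cells in both CD201+ populations, with log2 fold changes of 0.80 ± 0.10, 0.52 ± 0.07 and 0.80 ± 0.12 for CD201+CD48-. Parp14 stood at 146 CPM in CD201- replicate 3 and 102 in both other CD201- libraries, and was called with and without replicate 3. In the main fit of all libraries, Dtx3l passed between the CD201+ populations (0.30 ± 0.07, adjusted p = 0.0095), and Parp14 (0.25, adjusted p = 0.17) and Parp9 (0.23, adjusted p = 0.10) did not. Both passed there without CD201- replicate 3 (adjusted p = 6.4e-04 and 0.029), and Parp14 also when scaled by library size only. Parp9 and Dtx3l overlap on the chromosome, so that reads of one may be counted for the other. The giant E3 ligase Rnf213 had 764 ± 8.80, 717 ± 54.9 and 571 ± 36.5 CPM. In the main fit of all libraries, Herc6 and Trim25 passed only between the outer populations (log2 0.53 ± 0.15 and 0.23 ± 0.07). Without CD201- replicate 3, Herc6 also passed in CD201+CD48+ against CD201- (0.51, adjusted p = 0.0043) and Trim25 between the CD201+ populations (0.17, adjusted p = 0.029). Herc6 passed in CD201+CD48+ against CD201- also without CD201+CD48+ replicate 1, when scaled by library size only, and without the count filter.

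Set beside the promoters, the order of the libraries can be given for the genes with and without a match, as a description only. A match was found in 18 of 23 genes in steps (78.3%) and in 7 of 17 tested genes not in steps (41.2%). By call, it was found in 24 of 35 genes higher in CD201+CD48- than in CD201- cells and in 1 of the 5 others with a promoter, Eif2ak2. Among these 5, Eif2ak2, Oasl1, Ifit2 and Ifi35 were called higher in at least 1 alternative analysis. Whether a match goes with the step was not tested.

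The pathway upstream of the 55 genes was covered by 125 further genes in 7 lists, of which 95 were tested. In CD201+CD48- against CD201- cells 46 were higher and 12 lower, beside 24.2% of all genes higher and 23.9% lower, the background for each list below. The lists were drawn up from general knowledge, and both they and the 55 genes were chosen with earlier results of these data known. Their counts beside the background are therefore a description and not an independent test.

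Interferons themselves were scarcely detected. Of 12 ligand genes none passed the filter, 6 had no count in any library, and the 12 together had 3, 12 and 2 counts in CD201+CD48-, CD201+CD48+ and CD201- cells. Ifng had none, which allows up to 0.212, 0.162 and 0.218 CPM by the floor of 3 counts over the group, and Ifnb1 had 0, 2 and 0. Of 5 tested receptor genes, 4 were higher in each CD201+ population against CD201-. By edgeR none passed between the CD201+ populations, and 1 was higher at an unadjusted p under 0.05. Ifngr2, the signalling chain of the interferon gamma receptor, stood at 71.5, 73.3 and 66.6 CPM in CD201+CD48-, 65.6, 55.2 and 59.7 in CD201+CD48+, and 30.1, 28.2 and 33.5 in CD201- libraries (log2 of the outer populations 1.20 ± 0.10, adjusted p = 2.0e-07). Both CD201+ populations lay far above CD201- cells. Ifnar1 (0.54 ± 0.09), Ifnar2 (0.35 ± 0.10) and Ifngr1 (0.38 ± 0.08) were also higher in CD201+CD48- cells, and Il10rb was not (-0.06 ± 0.18).

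Among kinases and transcription factors of the pathway outside the 55, Irf2 (log2 0.79 ± 0.10 in CD201+CD48- against CD201- cells) and Jak2 (0.31 ± 0.08) were higher. Of 10 negative regulators none was higher by edgeR (1 at an unadjusted p under 0.05). Cish (-0.44 ± 0.14) and Irf2bp2 (-0.27 ± 0.10) were lower, which makes 2 of the 10. Socs1 (0.18 ± 0.35) and Socs3 (0.61 ± 0.26) did not pass. Over all genes 24.2% were higher and 23.9% lower. Counts over only 10 genes are too few beside these shares to be a result about the regulators. Of 12 adaptors and upstream genes 7 were higher, among them the kinase Ikbke (0.80 ± 0.12) and the nucleotide hydrolase Samhd1 (0.44 ± 0.07).

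MHC class I presentation is a pathway that interferon induces in many cells. Of its 14 genes, 4 were higher and 5 lower in CD201+CD48- against CD201-, with a median log2 fold change of -0.10. These counts lie near the shares over all genes, 24.2% higher and 23.9% lower, and are not a result about the pathway. Those higher were Erap1 (0.47 ± 0.07), B2m (0.47 ± 0.11), Tapbp (0.35 ± 0.10) and H2-K1 (0.34 ± 0.08), the trimming peptidase, the light chain, the loading factor and a heavy chain of the complex. Those lower were the chaperones Calr (-0.62 ± 0.13) and Pdia3 (-0.42 ± 0.08), the peptide transporter Tap2 (-0.34 ± 0.09), the proteasome activator Psme2 (-0.29 ± 0.09) and the immunoproteasome subunit Psmb8 (-0.28 ± 0.10). Of 46 further interferon-stimulated genes tested, 28 were higher and 5 lower, with a median of 0.48. The 3 with the smallest p were Helz2 (1.03 ± 0.10), Cd274, which encodes PD-L1 (0.83 ± 0.08), and Lgals3bp (0.88 ± 0.09). The 5 lower were Ccl5, Lap3, Lgals9, Mlkl and Pnpt1.

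**Figure D5:**
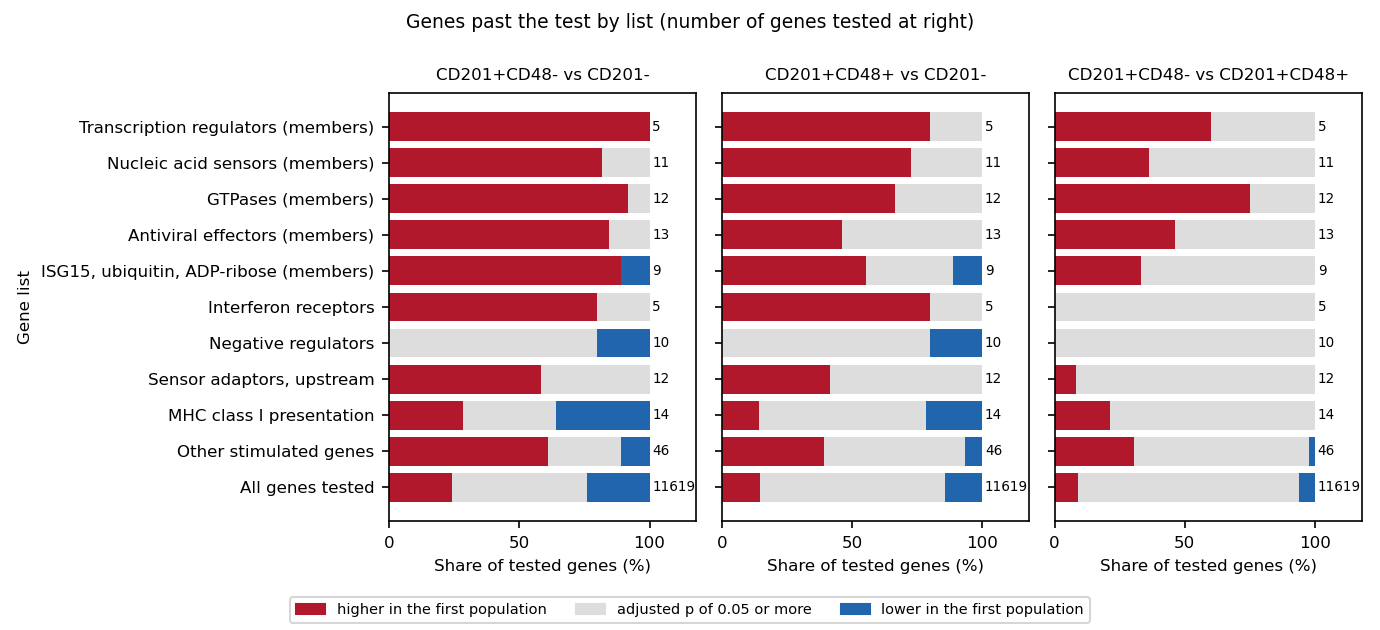
Share of the tested genes of each list shown that were higher (red), lower (blue) or did not pass (grey) in each comparison, with the number tested at the right of each bar and all genes tested as the last bar. In CD201+CD48- against CD201- cells, 44 of the 50 members and 4 of 5 receptor genes were higher, beside 24.2% of all genes tested.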

How the data were processed

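Bulk RNA-seq of 9 libraries, 3 of each of 3 sorted populations, was made from cells with Trizol LS and SMARTer kits and read as 36 nt pairs, per the labels' protocols. The deposited values are raw counts of each gene symbol, in whole numbers, to which the authors applied no normalization. The submitters' processing notes name mm10 and DESeq2. The strand setting, annotation, counter and aligner were not given in the sources used here, so reads of 19 members that overlap another annotated gene cannot be assigned with certainty. The deposited normalized signal, counts divided by size factors by the authors, served an alternative only. A further 3 columns that match no sample label were not used.

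Genes were filtered with filterByExpr (minimum count 10), scaled by TMM, and tested with edgeR 4.0.16 (glmQLFit, robust, all 9 libraries, group only) in R 4.3.3. Adjusted p-values are Benjamini-Hochberg values over 11619 genes. Standard errors were derived from the log2 fold change and its F statistic (absolute value over the root of F). CPM use TMM-scaled library sizes. The common biological coefficient of variation was 8.64%. Alternatives were RLE factors, library size only, no filter, a mean CPM of at least 5, DESeq2 1.42.0, limma 3.58.1 on log2(signal + 1), the 6 libraries compared, a replicate block, and each library left out. Gene coordinates and promoters are from RefSeq, GRCm38.p6. Shared 36-base stretches and lengths are from canonical GENCODE vM39 transcripts, matched by symbol for 54 of 55 genes, in place of a planned comparison of proteins. The members and lists were chosen with earlier results of these data known. Named are the 5 members per role with the smallest p, those lower, those at low counts, 3 genes per pathway list and all receptors; some genes under this rule are not reported here. The remaining members are named to complete the account, and further genes of the lists after their values were seen.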

Additional observations from a re-analysis of the deposited data

How the results depend on the processing

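Of the 17 alternatives, 8 changed the scaling, filter, test or fit and 9 left out a library. The count of higher members stayed within 39 to 47, 26 to 34 and 17 to 37 in CD201+CD48- against CD201-, CD201+CD48+ against CD201-, and CD201+CD48- against CD201+CD48+ cells, and the count of lower members was 1, 1 and 0 in each of them. No called member changed direction. Of the members called in the 3 comparisons, 5 of 45, 6 of 32 and 10 of 25 lost the call in at least 1 alternative. Library size only put the median of all genes at 0.17, 0.13 and 0.03 (log2) and gave member medians of 1.07, 0.66 and 0.45. A mean CPM of at least 5, which tests fewer members, gave 0.85, 0.44 and 0.36, and the 6 libraries compared gave 0.47 for CD201+CD48+ against CD201-. Leaving out a library gave medians of 0.88 to 0.96, 0.47 to 0.58 and 0.40 to 0.43. The fold changes of Gbp6 and Gbp9 against CD201- depend on the prior count. With both at their bounds the medians were 0.90 and 0.47 for the comparisons with CD201- cells, and that of the GTPases in CD201+CD48+ was 0.86 in place of 1.38.

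Only uncalled differences reversed, 13 in 7 members, and most turned with 1 library left out. Ranges over the libraries left out follow. Ifit2 in CD201+CD48- against CD201- went from -0.069 (without CD201- replicate 1) to 0.31. In CD201+CD48+ against CD201- the ranges were -0.24 to 0.14 for Ifit2 (0.14 without CD201- replicate 3, and 0.047 by library size only), -0.0089 to 0.35 for Eif2ak2 and -0.014 to 0.56 for Rsad2 (both lowest without CD201- replicate 1), -0.079 (without CD201+CD48+ replicate 1) to 0.071 for Bst2, and -0.031 (without CD201- replicate 3) to 0.24 for Ifi35. Bst2 was also -0.0038 with RLE factors, -0.0062 with DESeq2, -0.0073 with limma and -0.073 without CD201- replicate 3. Between the CD201+ populations the ranges were -0.069 (without CD201+CD48- replicate 1) to 0.14 for Irgm1 and -0.028 (without CD201+CD48+ replicate 1) to 0.38 for Ifi47. The causes were not tested. With the population means removed, same-numbered libraries correlated between -0.11 and 0.04 over the tested genes, none above 0.1. Such values cannot show whether same-numbered libraries share a culture or animal, which the labels do not say. The fit with a replicate block called 43, 30 and 24 members higher, with medians of 0.90, 0.51 and 0.40. Depth limits the ligands and the chromosome 5 Gbp genes.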
